A study of Mus musculus with 12 samples.

Results

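The comparison set a strong against a weak peptide agonist of one T cell receptor at the higher dose of the study: 3 arrays of cells taken after 2 µg of MCC peptide against 3 arrays of cells taken after 2 µg of 102S peptide. The arrays were chosen by their titles, 6 of the 12 in the series, and they were compared over 7945 genes. These were the genes with 1 symbol whose probe set passed a filter on low signal (a mean over the 12 arrays of at least 4.48 on the log2 scale). All 6 arrays held 5CC7 T cells, which carry a transgenic receptor for moth cytochrome c, placed in B10.A recipients by tail vein. Peptide in PBS followed by the same route, and 48 h later the transferred cells were sorted from pooled lymph nodes. The remaining 6 arrays held the same peptides at 0.2 µg, 3 of each. No unstimulated cells were analysed here, so a transcript higher with MCC is equally a transcript lower with 102S. The labels name neither the markers of the sort nor the age and sex of the mice. They also do not say that the replicates came from separate mice. Replicate 1 of each group differed from replicates 2 and 3 in sex-linked transcripts, as given below, so it held cells of another source. The p-values here measure the spread between these samples, and between replicates 2 and 3 that spread may be technical.

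A T cell receptor that engages its peptide and MHC molecule more stably signals more strongly, and a CD4 T cell reads that strength as an instruction on how far to divide and what to become. The same signal induces its own brakes, among them inhibitory receptors such as PD-1 and enzymes that damp the pathway inside the cell. Cells that meet peptide without strong inflammation are known to divide and then to become poorly responsive, a state called anergy, which has its own characteristic transcripts.

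The sorted cells carried the markers of CD4 T cells: all 9 genes of that marker list on the array passed the filter, 0 were called by limma (2 with an unadjusted p under 0.05), and their mean level lay between 10.48 and 10.65 on the MCC arrays and between 10.48 and 10.66 on the 102S arrays. Most markers of other cells lay under the filter, with exceptions. The mean of 9 CD8 T and NK cell markers lay between 4.06 and 4.45 with MCC and between 4.24 and 4.44 with 102S, with Ncr1, Klrc1 and Klrk1 under the filter and Cd8a, Cd8b1 and Prf1 the 3 above it. The mean of 9 B cell markers lay between 4.73 and 4.93 against 4.66 and 4.82, with Ms4a1, Cd79a and Pax5 under the filter and 3 of the 9 above it. Ighm, the heavy chain of immunoglobulin M, was high on every array, at 10.80, 10.81 and 10.59 with MCC against 11.05, 10.99 and 10.95 with 102S. It was not called (-0.27 ± 0.09, adjusted p = 0.0886), but was with the replicate block (adjusted p = 0.0392). Cd22, an inhibitory receptor of B cells, read 6.38, 5.18 and 5.68 against 4.75, 4.92 and 4.58 (1.0 ± 0.30, adjusted p = 0.0515), and was called in 6 of the 10 other settings, the replicate block among them. Cd79b differed by 0.37 ± 0.33. Replicates of a group correlated between 0.976 and 0.993 across probe sets, and MCC with 102S arrays between 0.948 and 0.975. Replicate 1 of each group stood apart in sex-linked transcripts: Xist, expressed by female cells, read 12.26 and 11.97 in replicate 1 of MCC and 102S and between 4.05 and 5.10 on the other 4 arrays. For β-actin, a control with probe sets at both ends of its transcript, the 3′ reading minus the 5′ reading, which is larger when RNA is shorter, was 0.499, 0.673 and 0.720 with MCC and 0.809, 1.30 and 1.62 with 102S, without overlap. Its part in the differences below was not tested beyond a fit with it as a covariate, which is given among the processing alternatives.

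At 2 µg, 895 of the 7945 genes (11.3%) differed between the peptides, which means an adjusted p under 0.05 in limma after Benjamini-Hochberg adjustment. Of these, 352 genes (4.43% of those tested) were higher with MCC and 543 (6.83%) were lower. Differences of at least 1 log2 unit, a 2-fold change, made up 152 of the genes higher and 119 of those lower. In all 895 the 3 MCC values and the 3 102S values did not overlap, against 2679 of all genes tested (33.7%). The median difference over all genes was -0.05 log2, MCC minus 102S, which is also the sign used throughout. In bulk samples like these, fewer cells carrying a transcript and less of it per cell cannot be told apart. With replicate number as a block, given that arrays of the same number deviated together, the count was 1520 (589 higher and 931 lower), and it included all 895. Counts of list genes given below for the main fit are to be read against its 4.43% higher and 6.83% lower. Those given with the replicate block are to be read against these 589 and 931 of the 7945 genes, not against the shares of the main fit. The count lay between 472 and 693 when 1 of the 6 arrays was left out, lowest without replicate 3 of 102S, 515 without its replicate 1, 592 without its replicate 2 and 595 without replicate 3 of MCC. On the 4 arrays with low Xist at 2 µg, with the matching 4 at 0.2 µg, it was 488.

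Among the genes highest with MCC, Nrp1, the co-receptor neuropilin-1, read 9.09, 9.65 and 9.33 with MCC (replicates 1 to 3) and 5.80, 6.40 and 6.20 with 102S. Tiam1, an exchange factor that activates the GTPase Rac, read 8.49, 8.37 and 8.32 against 5.45, 5.58 and 5.34. Each is a gap of several times the spread within a group, at 9.32-fold for Nrp1 and 7.64-fold for Tiam1. Eea1, a tether of early endosomes, read 7.76, 7.63 and 7.33 against 5.93, 5.47 and 4.89, 4.42-fold (2.14 ± 0.35 log2, standard error, adjusted p = 0.0024). Slc29a1, a nucleoside transporter, read 7.48, 7.59 and 7.03 against 5.90, 5.42 and 5.03 (1.92 ± 0.33, adjusted p = 0.0036). In both genes the lowest MCC array stood more than 1 log2 unit above the highest 102S array. The lipid phosphatase Plpp1 (2.08 ± 0.19), the cation exchanger Slc9b2 (2.07 ± 0.21), the phospholipase Pla2g4f (1.95 ± 0.21) and the uncharacterised 6330403K07Rik (2.04 ± 0.28) were higher as well. Nrgn, neurogranin, a calmodulin-binding protein, varied most among them, at 5.85, 7.82 and 6.69 with MCC against 4.70, 5.10 and 4.73 (1.95 ± 0.40, adjusted p = 0.0096).

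**Figure D1:**
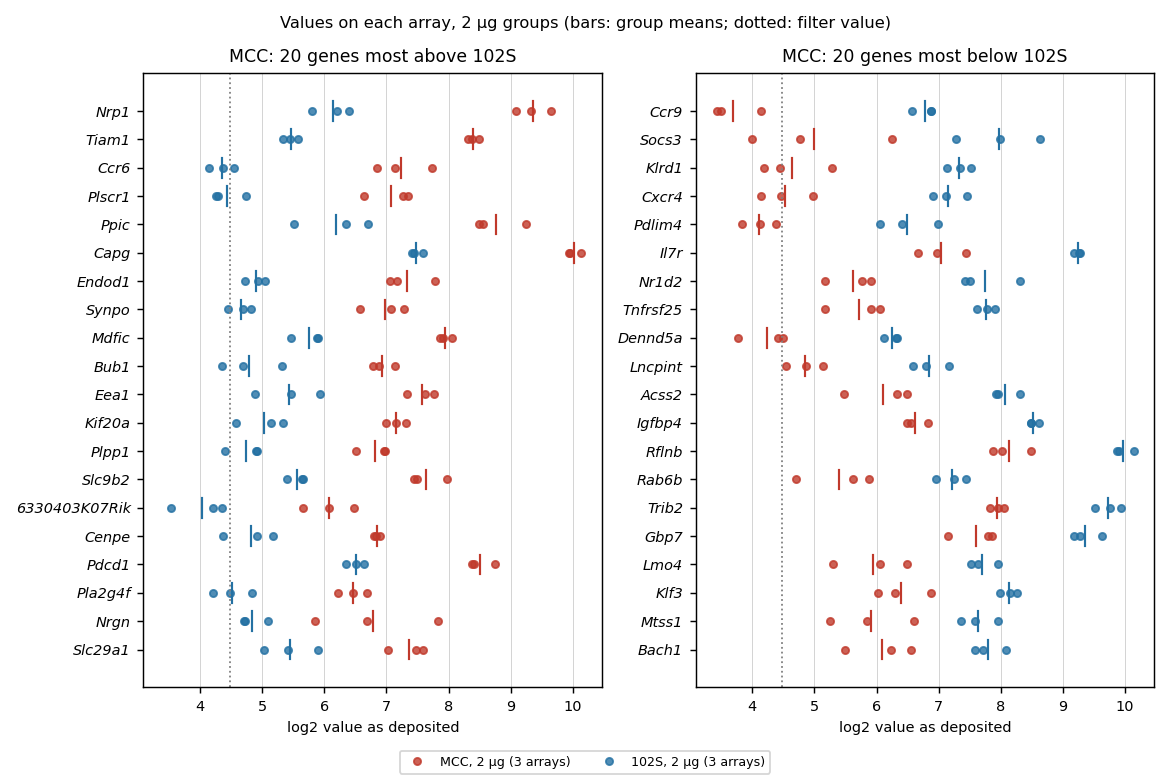
Log2 values on each array (points) and group means (bars) for the 20 genes with the highest and the 20 with the lowest MCC minus 102S difference at 2 µg, among called genes whose groups do not overlap; red is MCC, blue is 102S, 3 arrays each, and the dotted line is the filter value of 4.48. For Ccr9, Dennd5a and Pdlim4 the MCC mean lies left of that line, and for Ccr6, Plscr1 and 6330403K07Rik the 102S mean does.

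Among the genes lowest with MCC, Ccr9, a homing receptor for the gut, read 4.14, 3.49 and 3.42 with MCC and 6.88, 6.58 and 6.87 with 102S. Cxcr4, the receptor for CXCL12, read 4.97, 4.46 and 4.14 against 7.45, 7.11 and 6.90. Klrd1, the CD94 chain of NK cell receptors, read 5.29, 4.45 and 4.20 against 7.51, 7.13 and 7.35. For Ccr9 the MCC mean lay under the filter value, near the reading of a transcript that is not present, so its difference of -3.09 ± 0.22 log2 is given without a fold. Of the 543 genes lower with MCC, 21 had an MCC mean under that value, and of the 352 higher, 19 had a 102S mean under it. The size of such a difference is not exact, and of the genes named below this holds for Ccr6, Plscr1, Spry1, Ifitm2, Alcam, Fasl, Dennd5a and Pdlim4. Other genes of this group were Rab6b, a small GTPase of Golgi traffic (-1.81 ± 0.26), Acss2, which makes acetyl-CoA from acetate (-1.96 ± 0.27), Trib2, a pseudokinase (-1.79 ± 0.14), Rflnb, a filamin-binding protein (-1.84 ± 0.19), the transcriptional regulators Lmo4 (-1.76 ± 0.27) and Bach1 (-1.70 ± 0.26), and Gbp7, an interferon-induced GTPase (-1.76 ± 0.19). Of the 40 genes named for the size of their difference, 38 were called under every alternative that tested them and every omission of an array. Mtss1 (-1.72 ± 0.34), which links membranes to actin, and Klf3 (-1.73 ± 0.23), a transcriptional repressor, were not called when another probe set stood for them.

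Of the 35 gene lists, which were chosen with earlier results of these data known, that of mitosis had the largest share of its genes called. Of 33 tested genes of mitosis and the spindle, 30 were higher with MCC and 0 lower, against 4.43% and 6.83% of all genes, and their median difference was 1.35 log2 (range 0.15 to 2.15). A filter at the 60th percentile, which tests fewer genes, left 12 called. The median level of the list was 7.10, 7.29 and 7.0 on the MCC arrays and 5.42, 5.83 and 6.09 on the 102S arrays. Kif2c, a kinesin that takes microtubules apart, read 7.29, 7.28 and 7.31 against 5.40, 5.83 and 5.63 (1.67 ± 0.17, adjusted p = 0.000145). Kif11, the motor that separates spindle poles, read 6.92, 7.30 and 6.95 against 5.07, 5.11 and 5.34 (1.88 ± 0.19). Cdc20, the activator of the anaphase-promoting complex, read 8.81 on all 3 MCC arrays against 7.08, 7.67 and 7.63 (1.35 ± 0.16). Top2a, which untangles replicated DNA, read 9.30, 9.32 and 9.30 against 7.09, 7.75 and 7.75 (1.77 ± 0.18). The MCC arrays were thus nearly level with each other, while replicate 1 of 102S was the lowest of the 6 arrays for 30 of the 33 genes. The 3 tested genes not called were Kif22 (1.28 ± 0.43, adjusted p = 0.0854), Ndc80 (0.60 ± 0.19) and Kif23 (0.15 ± 0.14), named here after their values were seen.

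The genes of mitosis also shared sequence at their start sites. Windows of 250 bases before to 50 bases after the RefSeq start (assembly GRCm38.p6, first start listed for each gene) were found for 29 of the 33 genes and for 6496 of the 7945 tested. They were searched on both strands for CCAAT, the letters bound by the factor NF-Y, and for TTTGAA, the cell cycle homology region (CHR) bound by complexes that time mitotic genes. The windows of 3 genes of the list are shown, with matches to either strand in capitals. They had the highest differences among those whose window holds both motifs, with the genes of a single chromosome left out of the choice.
Kif11, chr19:37376132-37376431, plus strand: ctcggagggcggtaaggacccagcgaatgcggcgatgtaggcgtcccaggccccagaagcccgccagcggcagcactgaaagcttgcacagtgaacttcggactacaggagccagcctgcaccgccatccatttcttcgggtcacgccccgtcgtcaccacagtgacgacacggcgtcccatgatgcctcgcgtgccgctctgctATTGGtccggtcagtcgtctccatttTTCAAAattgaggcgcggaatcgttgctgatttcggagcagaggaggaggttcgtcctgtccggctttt
Ube2c, chr2:164769679-164769978, plus strand: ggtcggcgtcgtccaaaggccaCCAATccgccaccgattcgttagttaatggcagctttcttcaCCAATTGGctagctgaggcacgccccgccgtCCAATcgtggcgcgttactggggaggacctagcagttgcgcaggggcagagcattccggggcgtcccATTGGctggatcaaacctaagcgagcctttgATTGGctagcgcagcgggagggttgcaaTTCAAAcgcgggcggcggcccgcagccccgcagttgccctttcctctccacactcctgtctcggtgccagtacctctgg
Ccnb2, chr9:70421505-70421804, minus strand: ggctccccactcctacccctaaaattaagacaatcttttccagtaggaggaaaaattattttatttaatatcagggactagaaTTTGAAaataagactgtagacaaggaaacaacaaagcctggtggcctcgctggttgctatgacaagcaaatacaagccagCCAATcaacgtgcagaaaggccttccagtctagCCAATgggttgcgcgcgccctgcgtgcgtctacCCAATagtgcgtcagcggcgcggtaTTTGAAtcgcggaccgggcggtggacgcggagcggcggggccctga

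TTTGAA was found in 23 of the 29 windows of mitosis genes (79.3%) and in 753 of the 6496 windows in all (11.6%). The match nearest the start site lay a median of 20 bases from it in the 23 mitosis genes, 21 of them within 50 bases, and a median of 127 bases in all genes with a match. CCAAT was found in 22 of the 29 windows (75.9%) and in 38.8% of all. Ube2c, a ubiquitin-conjugating enzyme of mitotic exit shown above, held 6 CCAAT matches and 1 TTTGAA match, and Ccnb2, cyclin B2, held 3 and 2. GGCGGGAA, letters bound by E2F factors, was found in 0 of the 29 windows, in 5 of 25 windows of DNA replication genes (20%) and in 4.26% of all. Among the 287 genes higher with MCC that had a window, TTTGAA was found in 20.2% and CCAAT in 49.8%, and among the 435 genes lower, in 9.66% and 36.6%. The genes higher include the 30 called genes of the mitosis list, and their shares without that list were not determined. A match describes the letters of the window and does not show that a factor binds there.

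DNA replication genes were higher less uniformly. Of 29 tested, 13 were higher with MCC and 0 lower, with a median difference of 0.65 log2. Mcm5, a subunit of the replicative helicase, read 7.39, 7.42 and 7.27 with MCC against 6.01, 6.10 and 5.91 (1.36 ± 0.23, adjusted p = 0.0035). Lig1, the ligase that joins Okazaki fragments, read 8.03, 8.10 and 8.10 against 6.79, 7.06 and 6.87 (1.17 ± 0.13), and Prim1, a primase subunit, differed by 1.04 ± 0.15. The groups of these genes did not overlap, and their MCC arrays again lay close together. The count was 7 without replicate 2 of MCC or replicate 1 of 102S, 8 without replicate 3 of MCC, 8 on the arrays with low Xist, and 20 with the replicate block. Of 19 regulators of G1, 3 were higher and 0 lower, led by E2f8, an E2F repressor (1.35 ± 0.26). Chromatin regulators had 7 of 21 genes higher and 1 lower. Uhrf1, which maintains DNA methylation at replication, read 7.90, 8.24 and 8.18 against 6.13, 6.80 and 6.62 (1.59 ± 0.26), and Hmgb2 (1.38 ± 0.28), Ezh2, the H3K27 methyltransferase (0.85 ± 0.14), and the histone variant H2ax (0.82 ± 0.12) were higher too. The gene lower was Satb1, an organiser of chromatin in T cells, at 10.81, 10.75 and 10.58 against 11.86, 11.62 and 11.51 (-0.95 ± 0.10, adjusted p = 0.00022).

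**Figure D2:**
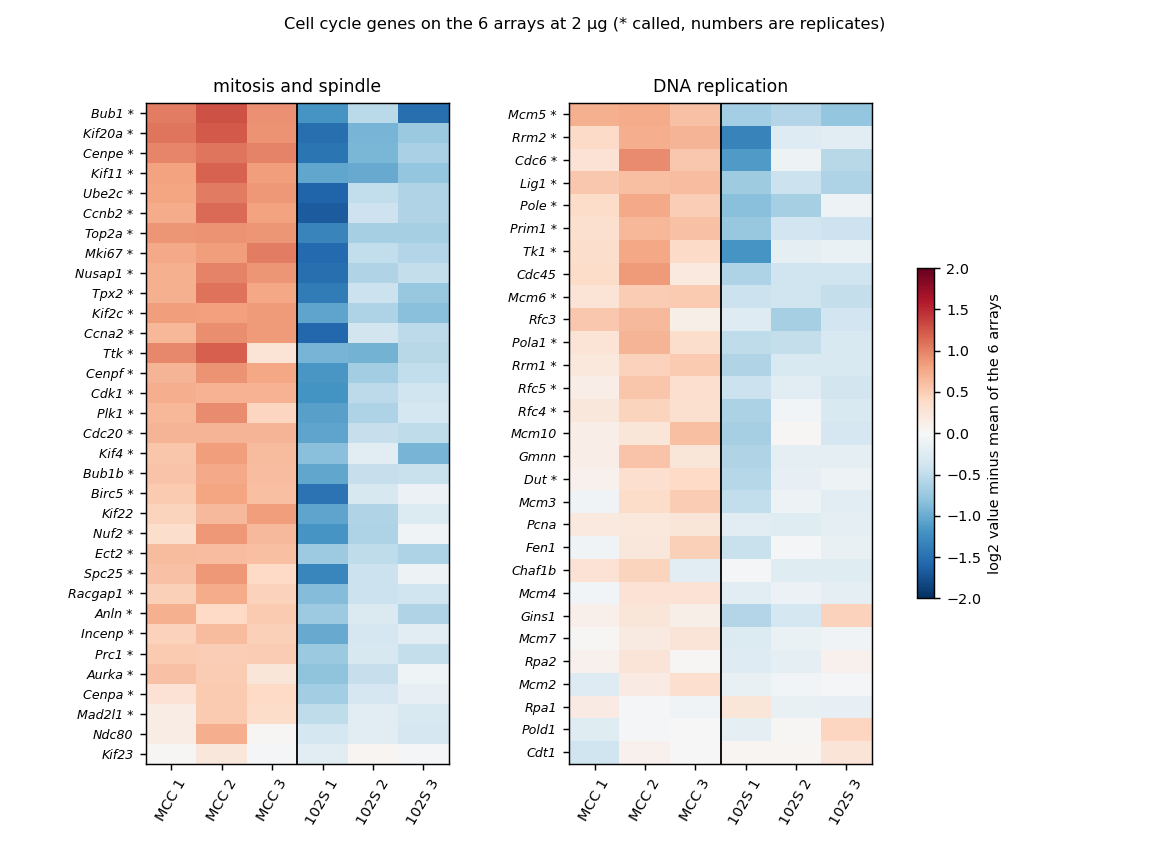
Colour gives the log2 value of a gene minus its mean over the 6 arrays at 2 µg, for the tested genes of the mitosis list and of the DNA replication list, ordered by difference, with an asterisk for called genes. The MCC columns are redder than the 102S columns for the 30 called mitosis genes and the 13 called replication genes, and the first 102S column is the lowest for 30 of the 33 mitosis genes.

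Receptors that restrain T cells were higher with MCC in part. Of 11 tested inhibitory receptors and ligands, 5 were higher and 0 lower (median 0.33 log2). Pdcd1, which encodes PD-1, read 8.41, 8.74 and 8.38 against 6.52, 6.64 and 6.35, 4.02-fold (adjusted p = 8.74e-06). Cd200, a ligand that inhibits myeloid cells, read 9.69, 9.98 and 9.76 against 8.08, 8.26 and 7.99 (1.70 ± 0.16), and Cd160 read 7.62, 8.13 and 7.52 against 5.78, 6.29 and 6.20 (1.66 ± 0.30). For each the lowest MCC array exceeded the highest 102S array by more than 1 log2 unit. Ctla4, which competes with CD28 for its ligands, was higher by 1.32 ± 0.32 (adjusted p = 0.021), and Lag3 by 0.85 ± 0.23 (adjusted p = 0.038). Their calls were lost without some single arrays, at adjusted p-values of up to 0.0873 for Ctla4, and the list's count was then 3, without replicate 2 or 3 of MCC and without replicate 1 or 3 of 102S.

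Costimulatory receptors and the TNF family moved in both directions, with 8 of 18 genes higher and 2 lower. Tnfrsf4, which encodes the costimulatory receptor OX40, read 8.75, 9.26 and 8.66 with MCC against 6.89, 7.35 and 7.25 (1.73 ± 0.19, adjusted p = 0.00023). Slamf6, an adhesive receptor of the SLAM family, was higher by 0.77 ± 0.11, and Cd83, a surface marker of activated lymphocytes, by 1.34 ± 0.20. Tnfrsf25, which encodes the death receptor family member DR3, went the other way, at 6.05, 5.92 and 5.18 against 7.91, 7.61 and 7.77 (-2.05 ± 0.20, adjusted p = 0.00011). The count of genes higher was 3 to 5 without any single array at 2 µg, 3 without replicate 2 of MCC or replicate 3 of 102S, and 4 on the arrays with low Xist. Tnfrsf25 was the 1 gene lower without replicate 2 of MCC or replicate 1 or 3 of 102S, where Tnfrsf1a, a TNF receptor (-0.47), lost its call.

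Receptors for migration and adhesion differed in both directions. Ccr6, the receptor for CCL20, read 6.85, 7.74 and 7.14 with MCC and 4.55, 4.14 and 4.38 with 102S, which lies about the filter value. Ptger4, a receptor for prostaglandin E2, read 10.66, 10.94 and 10.74 against 9.46, 9.42 and 9.53 (1.31 ± 0.10, adjusted p = 2.22e-05). Both groups of Ptger4 were tight, and no other gene of the 10 tested chemokine and egress receptors was higher. In that list 3 were lower: Ccr9, Cxcr4 and S1pr1, the receptor that draws T cells out of lymph nodes (-1.30 ± 0.32, adjusted p = 0.024, 0.102 at most when 1 array was left out or a setting altered). Among 25 integrins and adhesion molecules, 3 were higher (12%) and 7 lower (28%), against 4.43% and 6.83% of all genes. Cd44, the hyaluronan receptor of activated T cells, read 9.73, 9.65 and 9.51 against 8.15, 8.38 and 8.33 (1.34 ± 0.15), and Alcam, the ligand of CD6, was higher by 1.53 ± 0.23. The ICAM genes were lower: Icam2 read 7.79, 7.82 and 6.94 against 9.0, 9.0 and 9.25 (-1.57 ± 0.21), and Icam1 read 5.16, 5.66 and 4.74 against 6.74, 6.13 and 6.55 (-1.29 ± 0.25). Selplg, the scaffold of the selectin ligand PSGL-1, was lower by 0.62 log2 at 9.41, 9.29 and 9.28 against 9.99, 9.91 and 9.95. The count of adhesion genes lower was 3 without replicate 1 or 3 of 102S, 4 without replicate 3 of MCC, and 3 on the arrays with low Xist. With the replicate block 5 adhesion genes were higher.

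Few genes of the receptor and its proximal kinases were called. Of 22 tested genes of the T cell receptor complex and its kinases, 0 were higher and 2 lower, near the share of all genes, and the median difference was -0.01 log2. The differences ran from -1.67 to 0.87, the highest uncalled. Rasgrp2, a calcium-regulated activator of Rap1, was the lowest, at 6.64, 6.15 and 5.95 with MCC against 8.16, 7.80 and 7.80 (-1.67 ± 0.29, adjusted p = 0.0036). It was the 1 gene lower without replicate 2 or 3 of MCC or replicate 1 or 3 of 102S. With the replicate block 2 were higher, Zap70 and Lcp2. Each of these was called in 4 of the 11 other settings. Over all settings and omissions their limma adjusted p-values lay between 0.00537 and 0.337 for Zap70 and between 0.00754 and 0.457 for Lcp2. Brakes of receptor signalling had 4 of 30 genes higher (13.3%) and 2 lower (6.67%), against 4.43% and 6.83% of all genes (median 0.20). The share lower was thus that of all genes. With the replicate block 7 were higher and 4 lower. Spry1, an inhibitor of Ras and ERK signalling, read 6.13, 6.39 and 5.86 against 4.38, 4.46 and 4.08 (1.82 ± 0.18, adjusted p = 0.000145). Dgkz, the kinase that removes diacylglycerol, read 12.62, 12.59 and 12.49 against 11.998, 11.956 and 11.992, a difference of only 0.59 ± 0.08 but with tight groups (adjusted p = 0.0011). Dusp6, the phosphatase of ERK, read 10.02, 9.99 and 10.10 against 9.20, 9.28 and 9.16 (0.82 ± 0.17). Rgs2, a regulator of G protein signalling (-1.38 ± 0.24), and Nfkbia, the NF-κB inhibitor IκBα (-0.48 ± 0.09), were lower.

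Of 17 tested genes associated with anergy, 8 were higher with MCC and 1 lower (median 0.44 log2). Nrp1, Pdcd1, Ctla4, Lag3 and Dgkz belong to this list and have been described. The others were Nfatc1, a transcription factor of calcium signalling, at 8.70, 8.68 and 8.32 against 7.74, 7.70 and 7.59 (0.89 ± 0.13), Egr2, a transcription factor of the early response that is required for anergy, at 8.69, 8.44 and 8.40 against 8.03, 7.82 and 7.97 (0.57 ± 0.12, adjusted p = 0.0098), and Izumo1r, folate receptor 4 (0.74 ± 0.17). Egr2 and Izumo1r were not called on the arrays with low Xist alone, and 5 of the list were higher without replicate 3 of 102S. The gene lower, Tle4 (-0.51), a corepressor, was not called without replicate 2 or 3 of MCC or replicate 1 or 3 of 102S, and 2 were lower with the replicate block. Immediate early genes had 1 of 17 higher, Egr2, and 1 lower (5.88% each), near the 4.43% and 6.83% of all genes. Nr4a1, a reporter of recent receptor signalling, read 8.33, 8.52 and 8.63 against 8.27, 8.10 and 8.13, a difference of 0.32 ± 0.20 that was not called (adjusted p = 0.370). Of 24 lineage and effector transcription factors, 5 were higher and 2 lower. Irf4, a factor whose level follows receptor strength, read 8.36, 8.55 and 8.38 against 7.09, 7.43 and 7.10 (1.22 ± 0.19, adjusted p = 0.0018), and Zeb1, a repressor, was lower (-0.68 ± 0.13). The count higher was 2 without replicate 1 of 102S and 3 without its replicate 3 or without replicate 2 of MCC, and the count lower was 1 without any 1 array of 102S or replicate 3 of MCC.

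Defining genes of the helper subsets gave no call. Gata3, the factor of Th2 cells, differed by 0.23 ± 0.14 log2, Bcl6, the factor of follicular helper cells, by -0.26 ± 0.14, Myc by 0.15 ± 0.33 and Il2ra, the high-affinity IL-2 receptor chain, by 0.30 ± 0.21, with 95% intervals of -0.07 to 0.52, -0.56 to 0.04, -0.57 to 0.87 and -0.16 to 0.77. Tbx21, Eomes, Foxp3, Ifng, Il4, Il10 and Il21 lay under the filter, all with group means between 2.56 and 3.99 at this dose. Foxp3, the factor of regulatory T cells, read 3.67, 3.19 and 3.22 with MCC against 3.74, 4.12 and 4.10. Of 13 tested genes linked to regulatory T cells, 6 were higher and 3 lower, and of 14 follicular helper genes 5 were higher and 0 lower. The regulatory list's genes included Capg, Nrp1, Tnfrsf4, Izumo1r, Ctla4 and Tnfrsf9 higher, several of them receptors of activated cells in general, and Gpr83 (-1.0 ± 0.24), Cd81 (-0.53) and Ikzf4 (-0.70) lower. Without replicate 1 of MCC or replicate 3 of 102S, 3 of the regulatory list were higher, and without any 1 array of 102S 0 were lower. The list had 1 lower without replicate 1 or 3 of MCC. Without replicate 1 of 102S, 3 follicular helper genes were higher, and 1 was lower with the replicate block.

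Il2, the growth factor of T cells, was the cytokine that stood out although it was not among the tested genes. Its mean over the 12 arrays lay under the filter, but it read 5.93, 6.39 and 5.40 with MCC against 3.81, 4.33 and 4.23 with 102S at 2 µg, without overlap. In the fit without an intensity filter its difference was 1.78 ± 0.24 log2 (limma, adjusted p = 0.000697). In that fit, of 147 genes of the lists, the markers and the named factors and cytokines that lay under the filter, 5 were higher with MCC (3.40%) and 1 lower (0.680%). Over all genes of that fit 2.53% were higher and 3.34% lower, so the share higher was near the background. The others were Aurkb, the kinase of the chromosomal passenger complex (1.67 ± 0.22), Ccne2, cyclin E2 (1.23 ± 0.20), Tnfsf14, the TNF family ligand LIGHT (1.28 ± 0.26), Ccr10 (0.73 ± 0.17) and, lower, Prdm1, the repressor Blimp-1 (-0.85 ± 0.21, adjusted p = 0.0317). Prdm1 read 3.24, 3.17 and 3.56 against 4.28, 4.35 and 3.89, all under the filter value. Of the 10 cytokines and chemokines that did pass the filter, 0 were called by limma, 2 had an unadjusted p under 0.05, and 3 were called lower with the replicate block.

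Genes that receive cytokine signals were mostly not called. Of 19 cytokine receptor chains, 1 was higher (5.26%) and 2 lower (10.5%), near the 4.43% and 6.83% of all genes. Il2rb, the shared β chain of the IL-2 and IL-15 receptors, read 8.08, 8.15 and 7.94 against 7.07, 7.04 and 6.95 (1.03 ± 0.19, adjusted p = 0.0058). Il7r, the receptor chain for the survival factor IL-7, read 7.45, 6.66 and 6.98 against 9.28, 9.25 and 9.18, 4.62-fold lower. The other gene lower, Tgfbr2 (-0.59 ± 0.16, adjusted p = 0.036), was not called without any 1 of the 6 arrays, and 5 genes were lower with the replicate block. Among 24 signal transducers and inhibitors of cytokines, 0 were higher and 5 lower (20.8%). Socs3, the inhibitor of STAT3 signalling, read 4.77, 6.24 and 3.99 against 7.99, 8.63 and 7.28, so that each MCC array lay under each 102S array despite a spread of over 2 log2 units (-2.97 ± 0.55, adjusted p = 0.0052). Skil, a repressor of SMAD signalling, read 9.07, 9.28 and 9.09 against 9.91, 9.88 and 9.92 (-0.75 ± 0.09), and Smad4 was lower by 0.57 log2 (standard error 0.11). Stat4 and Stat6 each differed by -0.47 and lost their calls in several omissions, leaving 3 genes lower without replicate 1 or 3 of MCC or any 1 array of 102S.

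Genes of naive and resting T cells were lower with MCC, 10 of 22 with 0 higher, or 1 higher with the replicate block (median -0.38 log2). Beside Il7r, Satb1, Klf3 and S1pr1 they included Klf2, the factor that drives expression of egress and homing receptors, at 7.85, 7.87 and 7.39 against 9.57, 9.12 and 9.11 (-1.56 ± 0.17, adjusted p = 0.00022). Igfbp4, a binding protein of insulin-like growth factors that marks naive T cells, read 6.55, 6.5 and 6.82 against 8.48, 8.61 and 8.49 (-1.9 ± 0.23), and Cnn3, a calponin, differed by -1.32 ± 0.16. For Klf2 and Igfbp4 the highest MCC array lay more than 1 log2 unit below the lowest 102S array. Genes of cytotoxic cells and NK receptors had 4 of 12 lower and 1 higher. Fasl, the death ligand, read 4.87, 4.36 and 4.11 against 6.18, 5.50 and 5.66 (-1.33 ± 0.25, MCC mean under the filter value), and Ctsw, a cathepsin of cytotoxic cells, read 6.80, 6.21 and 6.19 against 7.48, 7.17 and 7.35 (-0.93 ± 0.17). Beside these, Cd8b1 differed by -0.24 ± 0.21 and Cd8a by -0.23 ± 0.25, both uncalled. The part of other cells of the sort in these differences was not tested.

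Genes of cell death moved in opposite directions, 3 of 24 higher and 3 lower (12.5% each, against 4.43% and 6.83% of all genes). The inflammatory caspases were higher: Casp4 read 7.41, 7.05 and 6.70 against 5.52, 5.10 and 4.96 (1.86 ± 0.23, adjusted p = 0.00044), and Casp1 read 7.57, 6.92 and 6.58 against 5.78, 5.48 and 5.11 (1.56 ± 0.26). The groups did not overlap in either gene. Bcl2l11, which encodes the death-promoting protein BIM, was higher by 0.68 ± 0.14. The inhibitor of apoptosis genes Birc3 (-0.52) and Birc2 (-0.35) were lower and lost their calls in several omissions, with Fasl the 1 gene lower without replicate 1 or 3 of MCC or replicate 1 or 2 of 102S. Cd74, the invariant chain of MHC class II, read 7.22, 7.20 and 7.26 against 5.86, 5.88 and 6.36 (1.19 ± 0.22, adjusted p = 0.0046). It was the 1 called gene of the 3 that passed the filter among 7 class II antigen presentation markers. The mean of the 7 lay between 4.70 and 4.89 with MCC and between 4.58 and 4.65 with 102S. Of the class II chains themselves, H2-Aa and H2-Ab1 lay under the filter, and H2-Eb1 passed it at 4.87, 4.60 and 4.84 against 4.97, 5.12 and 4.87 (-0.22 ± 0.22). H2-DMa, which helps load peptide, differed by 0.33 ± 0.26, and both were uncalled.

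The list of actin and the cytoskeleton was chosen with earlier results of these data known. It holds genes named for the size of their difference, such as Capg, Tiam1 and Pdlim4, so its large differences are no separate result. Of its 37 tested genes, 9 were higher (24.3%) and 4 lower (10.8%), with a median of 0.14. Capg, which caps actin filaments, read 10.13, 9.96 and 9.95 against 7.45, 7.60 and 7.41, 5.78-fold with hardly any spread. Stmn1, which destabilises microtubules, read 11.49, 11.77 and 11.67 against 9.83, 10.70 and 10.77 (1.21 ± 0.21), and Arpc5, a subunit of the Arp2/3 complex, was higher by 0.50 ± 0.08. Pdlim4, an adaptor of actin stress fibres, read 4.38, 3.83 and 4.13 against 6.99, 6.05 and 6.41 (-2.37 ± 0.31, MCC mean under the filter value). The count of genes lower was 2 without any 1 array of MCC or replicate 1 or 3 of 102S. Among 12 clock genes, 3 were lower (25%) and 1 higher (8.33%), against 6.83% and 4.43% of all genes. Nr1d2, a repressor of the clock, read 5.76, 5.92 and 5.17 against 8.30, 7.5 and 7.43, and Cry1, another repressor, read 6.28, 6.51 and 6.24 against 7.23, 6.97 and 6.92 (-0.69 ± 0.14, adjusted p = 0.0077). The labels do not give the hour of day at which the cells were taken. The gene higher was Bhlhe40, a repressor of the clock that is also induced in activated T cells (0.82 ± 0.24, adjusted p = 0.0468), and it was not called when any 1 of the 6 arrays was left out. Of 35 interferon-stimulated genes, 3 were higher and 3 lower, close to the background. Ifitm2, a restriction factor of viral entry, read 5.81, 5.97 and 5.36 against 3.60, 3.81 and 4.03 (1.9 ± 0.30, 102S mean under the filter value), Plscr1, a phospholipid scramblase, and Ifih1, the RNA sensor MDA5 (0.82 ± 0.14), were the others higher, and the GTPase gene Igtp was lower (-0.54 ± 0.10). With the replicate block 6 were higher and 7 lower, and 1 was lower without replicate 3 of MCC or replicate 1 or 2 of 102S.

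Housekeeping and metabolic lists had median differences between -0.18 and 0.08 log2, and some of their counts were larger with the β-actin covariate described above. With that covariate 620 of all 7945 genes were higher and 1391 lower, and counts of other lists were larger as well. Genes lower went from 10 to 15 in the naive list and from 7 to 12 in adhesion. They went from 5 to 12 in cytokine signal transducers and inhibitors and from 2 to 8 in cytokine receptor chains. In 31 proteasome genes 0 were called by limma and 3 had an unadjusted p under 0.05, with a median of 0.08 log2, and 2 were higher with the replicate block and 5 with the covariate. Ribosome biogenesis had 0 of 35 genes higher and 5 lower (14.3%, against 6.83% of all genes, median -0.18), among them Nop56, a component of nucleolar particles, at 8.2, 8.21 and 8.09 against 8.91, 8.67 and 9.09 (-0.72 ± 0.14). That count was 1 without replicate 3 of 102S, 2 without replicate 3 of MCC, 3 without its replicate 2 or without replicate 1 or 2 of 102S, 9 with the replicate block and 13 with the covariate. Respiratory chain and ATP synthase genes had 5 of 34 higher (all genes 4.43%) and 0 lower, by small amounts such as 0.46 ± 0.08 for Atp5pb at 11.73, 11.69 and 11.85 against 11.35, 11.33 and 11.22. That count was 1 without replicate 3 of 102S, 2 without replicate 1 of MCC, 3 without its replicate 2 or without replicate 1 or 2 of 102S, 8 with the replicate block and 15 with the covariate. In glycolysis and the TCA cycle 3 of 30 genes were higher (10%) and 2 lower (6.67%, against 6.83% of all genes). Pgk1, a glycolytic kinase, was higher by 0.58 ± 0.09, while Slc2a3, a glucose transporter, differed by -0.74 ± 0.19 and lost its call in 4 omissions. The count of 2 lower was not reached when any 1 of the 6 arrays was left out: it was 0 without replicate 3 of MCC or of 102S and 1 without any other. Without replicate 3 of 102S 1 gene was higher, and with the replicate block 7 were. Psat1, an enzyme of serine synthesis, was the 1 gene higher of 24 for amino acid supply and the ATF4 response, at 8.76, 9.11 and 8.92 against 7.51, 7.75 and 7.66 (1.29 ± 0.15, adjusted p = 0.00035). With the replicate block 4 of that list were higher and 2 lower. Of 24 genes of cholesterol and fatty acid synthesis, 2 were higher and 2 lower (8.33% each, against 4.43% and 6.83% of all genes). Scd2, a desaturase, read 11.32, 11.24 and 11.33 against 10.25, 10.32 and 10.26 (1.02 ± 0.15), though another probe set of it was not called, and Elovl6, an elongase, read 6.17, 6.21 and 5.48 against 7.17, 7.33 and 6.92 (-1.19 ± 0.24). Elovl6 was the 1 gene lower without replicate 1 or 3 of MCC or any 1 array of 102S.

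Few targets of p53 and few genes of the lysosome were called. Of 17 p53 targets, 3 were lower (17.6%, against 6.83% of all genes) and 0 higher, with 2 higher under the replicate block: Rrm2b, a ribonucleotide reductase subunit for DNA repair, read 6.6, 6.59 and 6.33 against 7.60, 7.23 and 7.25 (-0.85 ± 0.15), with Ddb2 (-0.59 ± 0.11), a sensor of DNA damage, and Gadd45b (-1.02 ± 0.22). Of 30 lysosome and autophagy genes, 3 were lower (10%) and 1 higher, 2 higher with the replicate block, and 9 lower with the β-actin covariate. Lamp1, a protein of the lysosomal membrane, read 8.87, 8.97 and 8.84 against 9.59, 9.55 and 9.53 (-0.66 ± 0.09, adjusted p = 0.00062), and Npc2, which binds cholesterol there, was lower by 0.45 log2 (standard error 0.06). Cytosolic ribosomal proteins (2 of 19 lower), splicing regulators (2 of 35 lower) and protein folding genes (2 of 31 higher and 2 lower) lay near or under the background in this fit. The ribosomal count was 0 without any 1 array of 102S and 1 without any 1 array of MCC. The splicing count was 0 without any 1 array of 102S or replicate 2 or 3 of MCC, and 1 without replicate 1 of MCC. Both counts also fell without some arrays at 0.2 µg. With the replicate block 4 splicing regulators were lower and 4 folding genes higher, and with the β-actin covariate 12 splicing regulators were lower. When any 1 of the 6 arrays was left out, 1 folding gene was higher. For 6532 of the 7050 genes not called, the 95% interval of the difference lay within 1 log2 unit of 0.

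**Figure D3:**
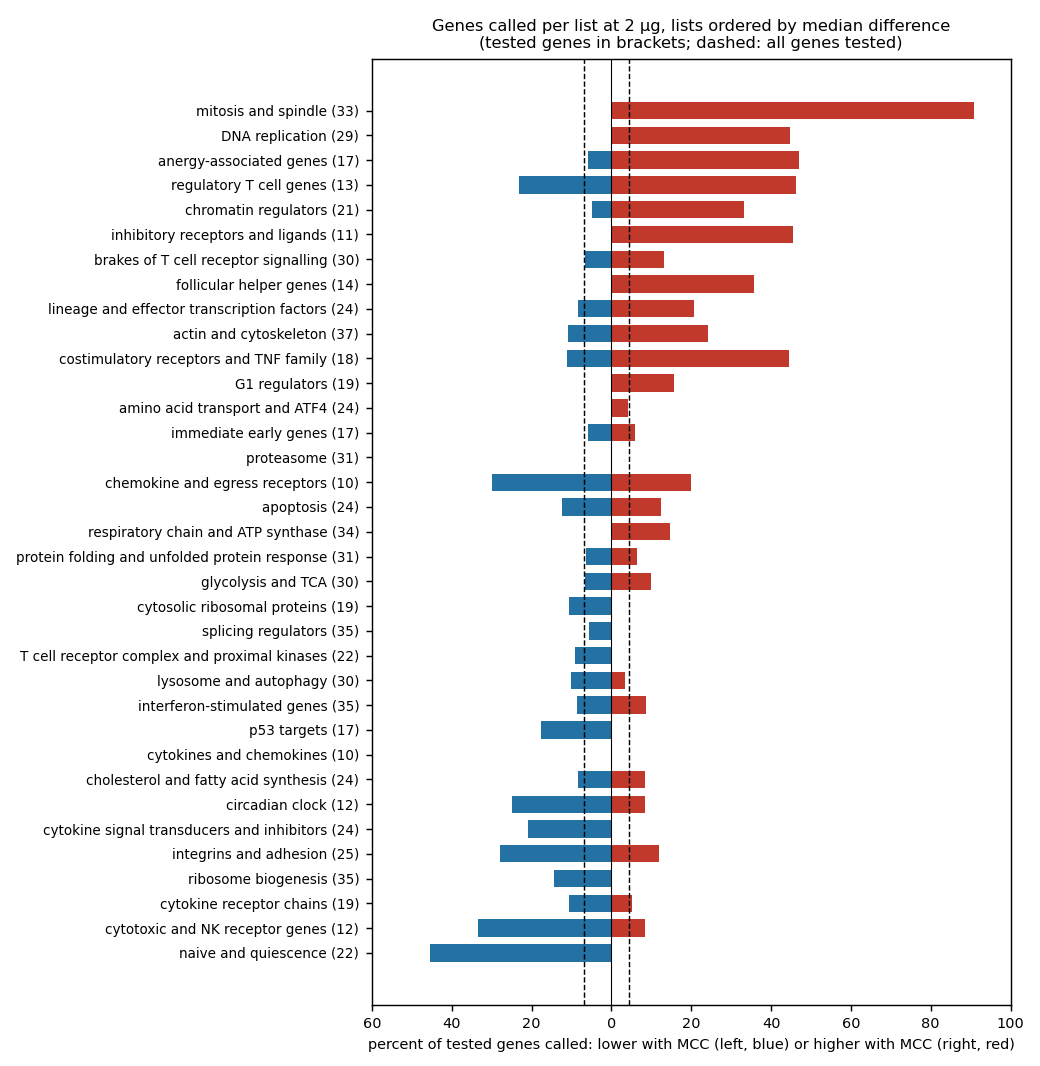
Bars give the percent of tested genes of each list called higher with MCC (right, red) or lower (left, blue) at 2 µg, with the number tested in brackets and the lists ordered by their median difference. The dashed lines are the shares over all 7945 genes, 4.43% higher and 6.83% lower; mitosis has the longest bar to the right and the naive list the longest to the left.

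The design also asks whether the gap between the peptides depends on their dose. The difference between the peptides at 0.2 µg rests on 6 other arrays, with a shared estimate of the spread. At 0.2 µg, 722 genes (9.09%) were higher with MCC and 558 (7.02%) lower. Of the 352 genes higher at 2 µg, 291 (82.7%) were also higher at 0.2 µg, which are 40.3% of those higher there, and of the 543 lower, 277 (51.0%) were also lower, which are 49.6% of those lower there. The interaction, the difference at 2 µg minus the difference at 0.2 µg, was called for 72 of 7945 genes (0.906%), 5 positive and 67 negative, and for 212 with the replicate block. It was called for 47 genes without replicate 3 of MCC at 2 µg, 44 and 46 without replicates 2 and 3 of 102S at 2 µg, and 43 without replicate 2 of MCC at 0.2 µg. Thus 264 genes lower at 2 µg and not called at 0.2 µg included only 7 whose difference was itself shown to depend on the dose, and for the 61 higher at 2 µg and not called at 0.2 µg this number was 1.

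Most interactions were in genes whose peptide gap was narrower at 2 µg. Mki67, which encodes the proliferation marker Ki-67, averaged 10.03 ± 0.14 with MCC and 8.28 ± 0.59 with 102S at 2 µg, and 9.48 ± 0.19 and 3.96 ± 0.19 at 0.2 µg (SD, n = 3). Its gap was 1.75 ± 0.24 log2 at the high dose and 5.53 ± 0.24 at the low one, where the 102S mean lay under the filter value (interaction -3.78 ± 0.34, limma adjusted p = 0.00029). Cd83 differed by 1.34 ± 0.20 and 4.39 ± 0.20 at the 2 doses, and Il2rb by 1.03 ± 0.19 and 2.62 ± 0.19. Of the mitosis genes 8 of 33 had a called interaction, and the median gap of that list was 1.35 at 2 µg and 2.42 at 0.2 µg. Slc22a2, an organic cation transporter, was not called at 2 µg: it read 5.96, 5.96 and 5.83 with MCC and 5.80, 6.02 and 6.31 with 102S at 2 µg, against 3.25 ± 0.18 log2 between the peptides at 0.2 µg. Cxcr5, which guides T cells to B cell follicles, was likewise not called at 2 µg, at 7.75, 7.75 and 7.17 against 7.12, 7.49 and 6.85 (0.41 ± 0.25) at 2 µg and a gap of 3.19 ± 0.25 at 0.2 µg. Klf2 was lower with MCC at both doses, by 1.56 log2 and by 3.33 log2.

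Other interactions were in genes with a wider gap at 2 µg, or with gaps of opposite sign at the 2 doses. Ccr6 was near the filter value in all groups but those given MCC, averaging 7.24 ± 0.45 with 2 µg and 5.34 ± 0.54 with 0.2 µg of MCC (interaction 2.00 ± 0.38, adjusted p = 0.032). Spry1 averaged 6.12 ± 0.26 with 2 µg of MCC and between 4.17 and 4.52 in the other 3 groups (interaction 1.47 ± 0.26, adjusted p = 0.020). For Spry1, 2 of those 3 means lay under the filter value, so the size of the interaction is not exact, and the gene passed the filter through the group where it was high. Ccr9 was the mirror of these, at 3.69 ± 0.40 with 2 µg of MCC and between 6.78 and 7.93 in the other groups (interaction -2.01 ± 0.30). Dennd5a, a regulator of Rab GTPases, averaged 4.23 ± 0.40 with 2 µg of MCC and between 6.25 and 6.66 elsewhere, and Ctsw 6.40 ± 0.35 against 7.33 to 7.86 elsewhere. Gpr83 and Ikzf4 were the 2 genes called in opposite directions at the 2 doses, and Ikzf4 is named after its values were seen. Gpr83, a receptor enriched in regulatory T cells, differed by -1.0 ± 0.24 at 2 µg and by 1.07 ± 0.24 at 0.2 µg (interaction -2.08 ± 0.35, adjusted p = 0.014). Its call at 2 µg was lost without any 1 of the 102S arrays, at adjusted p-values of up to 0.083. Ikzf4, which encodes the factor Eos, differed by -0.70 ± 0.20 and 1.75 ± 0.20 (interaction -2.44 ± 0.28, adjusted p = 0.0013). The call of Ikzf4 at 2 µg (limma adjusted p = 0.0444) was likewise lost without any 1 of the 102S arrays. For Il18r1, the receptor chain for IL-18, the gap was narrower at 2 µg, where it was not called: it read 7.92, 8.19 and 7.86 with MCC against 7.88, 7.48 and 7.78 with 102S at 2 µg, while at 0.2 µg the gap was -1.94 ± 0.15 (interaction 2.21 ± 0.21, adjusted p = 0.0004).

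**Figure D4:**
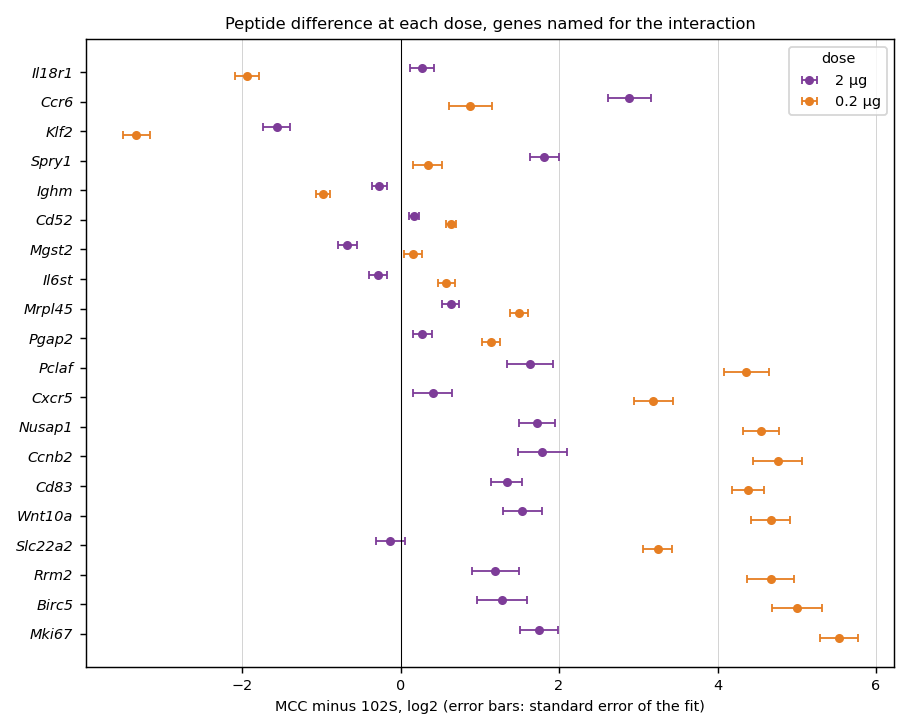
The MCC minus 102S difference in log2 units at 2 µg (purple) and at 0.2 µg (orange), with the standard error of the fit, for the 10 genes with the highest and the 10 with the lowest called interaction. For the 10 lowest, from Pclaf to Mki67, the orange point lies right of the purple one by several standard errors, and for Il18r1, Ccr6, Klf2, Spry1 and Ighm the purple point lies to the right.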

How the data were processed

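Affymetrix 3′ expression arrays of sorted T cells were analysed, 3 in each of 4 groups formed from the titles. The deposited table holds 1 log2 value per probe set and array, and the submitters' processing notes name GCOS 1.4. The summary, background correction and scaling applied by the authors are not stated in any source used here. The log2 values were used as deposited, since array medians differed by at most 0.089. The number of arrays limits the precision: the median standard error of a difference was 0.18 log2.

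Of 22690 probe sets, 20393 had 1 symbol in the platform annotation, 691 several and 1606 none. Of these, 20364 matched RefSeq's gene table (GRCm38.p6) by Entrez identifier, which altered 0 symbols. Controls (64) and probe sets whose mean lay under the 40th percentile (log2 4.48) were dropped, leaving 13556 probe sets. The probe set of highest mean stood for a gene. Of the 895 called genes, only Nap1l1 had another probe set called the opposite way. Promoter windows were those of RefSeq.

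limma 3.58.1 in R 4.3.3 fitted 4 group means to all 12 arrays (lmFit, eBayes with an intensity trend, 8 residual and 4.16 prior degrees of freedom). Tests were 2-sided, with Benjamini-Hochberg adjustment over the 13556 probe sets and a threshold of 0.05. Values after ± are standard errors of the fit, or standard deviations where marked SD. Same-numbered MCC and 102S arrays at 2 µg deviated from their group means with correlations of 0.601, 0.195 and 0.241 across probe sets, each over 0.1. Replicate number was therefore also fitted as a block, as an alternative setting. The main fit does not pair the arrays, so its standard errors and calls take no account of replicate number. The other pairs lay between -0.49 and 0.246, with MCC replicate 3 and 102S replicate 2 at 0.246 and MCC replicate 2 and 102S replicate 3 at 0.106, so replicates 2 and 3, both low in Xist, correlated across numbers nearly as within them. In the labels these are only numbers. On simulated arrays with 13556 probe sets at 2 µg, the fit recovered 71 of 100 changes of 1 log2 and 93 of 100 of 2 log2, with 6 false calls.

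The comparison, the 35 lists (963 genes, 752 tested) and the markers were chosen with earlier results of these data known. Named genes were the 20 highest and 20 lowest non-overlapping calls, up to 6 genes of each list and 3 of each marker list by smallest p, the 10 highest and 10 lowest called interactions, and a set of subset-defining factors and cytokines. Genes outside this rule are said to be so, except members of a list given only by value.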

Additional observations from a re-analysis of the deposited data

Results flagged for a closer look

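The difference between the peptides at 2 µg was set against that at 0.2 µg by the interaction term of the limma fit, and 72 genes had an adjusted p under 0.05. The values below are the difference at 2 µg minus the difference at 0.2 µg, in log2 units. The 5 positive ones were in Il18r1 (2.21), Ccr6 (2.00), Klf2 (1.77), Spry1 (1.47) and Ighm (0.71), the heavy chain of immunoglobulin M. Klf2 was lower with MCC by more at the low dose than at the high one. Ighm differed by -0.98 ± 0.09 at 0.2 µg and was not called at 2 µg (-0.27 ± 0.09, adjusted p = 0.0886, and 0.0392 with the replicate block). Ighm read between 10.41 and 11.53 on all 12 arrays, where 6 of the 9 B cell markers on the array lay under the filter and Cd79b and Cd22 above it; the part of B cells in this was not tested. The next highest interactions were already negative: Cd52 (-0.47), Mgst2 (-0.83), Il6st (-0.86), Mrpl45 (-0.86) and Pgap2 (-0.87). Of these, Mgst2, a glutathione transferase, was lower with MCC at 2 µg (-0.67 ± 0.12) and not called at 0.2 µg (0.16 ± 0.12). Il6st, the shared chain gp130 of the IL-6 family receptors, differed by -0.28 ± 0.11 at 2 µg and was higher with MCC at 0.2 µg (0.58 ± 0.11).

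The lowest interactions were in Mki67 (-3.78), Birc5 (-3.72), Rrm2 (-3.47), Slc22a2 (-3.38), Wnt10a (-3.13), Cd83 (-3.05), Ccnb2 (-2.97), Nusap1 (-2.82), Cxcr5 (-2.78) and Pclaf (-2.73). Mki67, Birc5, Ccnb2 and Nusap1 act in division and Rrm2 and Pclaf in DNA synthesis. Wnt10a, a secreted Wnt ligand, read 8.84, 8.64 and 8.19 with MCC against 6.49, 7.48 and 7.10 with 102S at 2 µg (1.53 ± 0.25), and its gap at 0.2 µg was 4.67 ± 0.25. For Mki67, Birc5, Slc22a2, Ccnb2, Nusap1 and Cxcr5 the mean with 0.2 µg of 102S lay under the filter value, near the reading of an absent transcript, so the size of these interactions is not exact.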

How the results depend on the processing

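The replicate block gave 1520 genes called at 2 µg (589 higher, 931 lower) and 212 interactions. The Xist type as a block gave 166 interactions. The arrays with low Xist alone gave 488 genes (217 higher, 271 lower), 461 of them among the 895. The β-actin covariate gave 2011 genes (620 higher, 1391 lower) and 191 interactions. Without 1 of the 12 arrays the counts lay between 472 and 1018 for all calls, 219 and 410 for those higher, 253 and 608 for those lower, and 43 and 100 for the interaction. Leaving out the arrays at 0.2 µg was added after the data were seen. Without replicate 3 of MCC at 2 µg, 51.4% of the calls were higher, against 39.3%. Quantile normalization, median centring, no intensity trend, no filter, a filter at the 60th percentile, the 6 arrays alone and another probe set per gene gave between 727 and 1026 calls. Of the 166 named genes that were called, 104 kept the call in every setting that tested them and in every omission. Son, a splicing factor that was lower with MCC (-0.27), was reversed with the probe set of largest interquartile range (0.68, adjusted p = 0.625). Of the 70 counts of called genes in the lists, 31 moved by over 1.5 times without some array at 2 µg and 16 without some array at 0.2 µg. The cause of these shifts was not tested.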
